A study of Mus musculus and Callithrix jacchus with 22 samples.

Results

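Astrocytes were the cells that the authors' annotation of single-cell open-chromatin profiles named Astro in mouse and marmoset neocortex. They were chosen by this name alone, without any measured value. There were 2618 of them among 35064 cells, 700 of 19145 in mouse and 1918 of 15919 in marmoset. Mouse cells came from combined somatosensory and motor cortex of wild-type C57BL/6 mice on postnatal day 1 (P1), day 7 (P7) or day 21 (P21), with 4 libraries at each age. By their titles each age had 2 libraries with digits after the age (the numbered libraries) and 2 that began with Pool (the Pool libraries). Within the numbered libraries the digits differed between ages. The deposited cell data put Pool before the names of all mouse libraries, and the labels do not say what it stands for. Marmoset cells came from cortex of wild-type newborns (Day0, 5 libraries) and adults (labelled Y7, 2 libraries, and Y8, 3 libraries). Mouse libraries were made on plates by combinatorial indexing and marmoset libraries in droplets, so species and method cannot be told apart. The labels give no treatment and no introduced allele for any animal. The labels also carry a sorting protocol for fluorescent projection neurons, whereas the methods describe no such selection for the single-cell samples, only a sort that distributed mouse cells into wells and a sort of live marmoset cells.

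Astrocytes are glia, the non-neuronal cells of the brain. They take up glutamate and potassium released by active neurons, contact blood vessels and synapses, and supply neurons with metabolites. In rodent cortex most of them arise around and after birth, from radial glia that earlier produced neurons and by local division of young astrocytes. Aqp4 encodes the water channel of their vascular endfeet, and Gfap encodes an intermediate filament of the astrocyte skeleton. In cortex, oligodendrocyte precursors (OPC) arise before birth and mature into the myelinating cells over the following weeks or, in primates, months to years.

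The assay counts transposase cuts in accessible DNA. For each cell the data gave the number of reads, the number of peaks that held a read, a cluster and a cell type. Values per gene were not used here, so the name Astro could not be checked against Aqp4 or Gfap. A cell was kept between 1000 and 14997 reads as found in the data. The authors also required at least 300 peaks. All shares are shares of cells within these limits, not of the tissue.

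Both P1 numbered libraries stood apart from the other 10 mouse libraries. Their astrocytes held 17.2 and 10.7 peaks per 100 reads, against 53.2 to 57.6 elsewhere, and neurons of these libraries differed in the same way. Their part in the results was not tested, and the abundance and read differences from P1 are also given without them. Among mouse cells, 9138 (47.7%) carried a barcode that also occurred in another library, among them 307 of the 700 astrocytes. Only 9 barcodes belonged to astrocytes in 2 libraries, and no 2 cells with the same barcode had the same read and peak counts. In marmoset 33 of 1918 astrocytes (1.72%) had such a barcode.

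Mouse astrocytes fell into 2 clusters split by age. Cluster 12 held all 402 P1 and all 196 P7 astrocytes, and cluster 29 held all 102 P21 astrocytes and no other cell. Cluster 12 also held 15 P21 cells that carried no type, 2 to 6 from each of the 4 P21 libraries. Their median of 1481 reads lay close to that of the named P21 astrocytes, 1417.5. Low reads do not mark astrocytes alone, since P21 myelin-forming oligodendrocytes had library medians of 1601 to 1956.5. Marmoset astrocytes were also divided by age, with 1260 Day0 cells in cluster 2 and 658 adult cells in cluster 8. Each of these clusters held no other cell and drew on all 5 libraries of its age. The authors split each cluster by age and filtered out small groups. Mouse cluster 12 held P1, P7 and P21 cells under the same number, and the part of that step in this division was not tested.

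In mouse the astrocyte share of annotated cells fell after P1. At P1 it was 5.76% and 5.75% in the Pool libraries and 10.1% and 11.3% in the numbered ones. At P7 it was 3.23% and 2.85% in Pool and 5.05% and 4.83% in numbered libraries. At P21 it was 2.22% and 2.98% in Pool and 0.569% and 0.821% in numbered libraries. Every P1 library lay above every P7 and P21 library, while P7 and P21 overlapped. The mean over 4 libraries and its SD came to 8.21% ± 2.88 for P1, 3.99% ± 1.11 for P7 and 1.65% ± 1.15 for P21. The difference from P1 was -4.22 percentage points at P7 and -6.56 at P21 (adjusted p = 0.0367 for both, two-sided exact permutation test over libraries, adjusted over 9 tests). From P7 to P21 the difference was -2.34 points and missed the threshold (adjusted p = 0.0571 by the same exact test). In all mouse tests n counts libraries, and libraries of 1 age fell into sets of unlike make-up. At P1 the 2 Pool libraries did not differ in make-up (p = 0.933, chi-square test), nor did the 2 numbered ones (p = 0.207). P1 Pool replicate 1 and P1 numbered replicate 1 did differ (p = 1.5e-05, chi-square test). Averaging libraries of like make-up left 2 values at P1, 2 at P7 and 3 at P21, too few for any call. Without the 2 P1 numbered libraries the differences from P1 were -1.76 and -4.10 points, with too few libraries for a call. Cells without a type, left out of these shares, were 17.6% to 21.9% of cells in P7 libraries. They were 4.50% to 5.44% at P1 and 1.97% to 6.13% at P21. With these cells in the denominator all 3 age differences kept their direction, and the same ones passed the threshold.

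Set against neurons, the excitatory and inhibitory cells named in the same library, astrocytes showed the same order. There were 6.24 and 6.26 astrocytes per 100 neurons in the P1 Pool libraries and 11.6 and 13.1 in the P1 numbered libraries. At P7 the Pool libraries had 3.50 and 3.09 and the numbered libraries 5.62 and 5.43. At P21 the Pool libraries had 2.46 and 3.33 and the numbered libraries 0.603 and 0.866. The log2 ratio, with 0.5 cells added to both counts, changed by -1.04 ± 0.36 (SE) from P1 to P7 and by -2.59 ± 0.65 from P1 to P21 (both with adjusted p = 0.0367 by exact permutation of 4 against 4 libraries). Between P7 and P21 the change was -1.55 ± 0.62 and missed the threshold (adjusted p = 0.0571 by the exact test). Without the 2 P1 numbered libraries the changes from P1 were -0.55 at P7 and -2.10 at P21, as values without a call. Much of the spread at P21 lay between the series: the numbered libraries gave -2.91 from P7 to P21 and the Pool libraries -0.20.

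Interneurons, the inhibitory cells, and pyramidal neurons were also taken separately, as a description. Per 100 interneurons there were 26.8 and 28.9 astrocytes in P1 Pool, 19.5 and 21.9 in P7 Pool, and 17.5 and 25.5 in P21 Pool libraries. In the numbered libraries the counts per 100 interneurons were 56.6 and 54.5 at P1, 31.4 and 32.2 at P7, and 4.94 and 6.43 at P21. Per 100 pyramidal neurons, the excitatory projection cells, the range was 7.99 to 17.2 at P1, 3.59 to 6.85 at P7 and 0.687 to 3.83 at P21. P7 and P21 overlapped on both counts, and per interneuron the Pool libraries of these ages lay side by side.

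Of the 3 abundance measures in mouse, the ratio to the oligodendrocyte lineage moved furthest on the log2 scale over all libraries, and in it P7 and P21 did not overlap. In the numbered libraries alone, the ratio to neurons moved further from P7 to P21. The oligodendrocyte lineage consisted wholly of OPC at P1 and P7. At P21 it consisted of newly formed (NFOL, 110 cells) and myelin-forming (MFOL, 337 cells) oligodendrocytes with no cell named OPC. At P1 there were 288, 238, 287 and 486 astrocytes per 100 cells of this lineage (Pool replicates 1 and 2, then numbered 1 and 2). At P7 there were 72.3, 59.3, 96.8 and 78.1, and at P21 30.3, 40.7, 11.2 and 18.4, in the same order. Astrocytes therefore outnumbered the lineage in 4 of 4 P1 libraries and in no P7 or P21 library. The log2 ratio changed by -2.03 ± 0.26 (SE) from P1 to P7, by -1.73 ± 0.43 from P7 to P21 and by -3.76 ± 0.46 from P1 to P21 (each with adjusted p = 0.0367 by exact permutation of 4 against 4 libraries). Without the 2 P1 numbered libraries the changes from P1 were -1.77 at P7 and -3.50 at P21. The difference between P7 and P21 was -2.57 in the numbered and -0.89 in the Pool libraries. It was -1.42 and missed the threshold when cells below the mouse median of 3444 reads were left out (adjusted p = 0.220 by the exact test).

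The share and the ratios to neurons and to the lineage had the same direction in both series. With 4 against 4 libraries the exact permutation test cannot give p under 0.0286. When cells with a barcode found in another library were left out, the values moved little (share -4.36 and -6.58 points from P1) but none of the 7 mouse calls passed, with adjusted p from 0.0643 to 0.110 (exact permutation test).

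**Figure D1:**
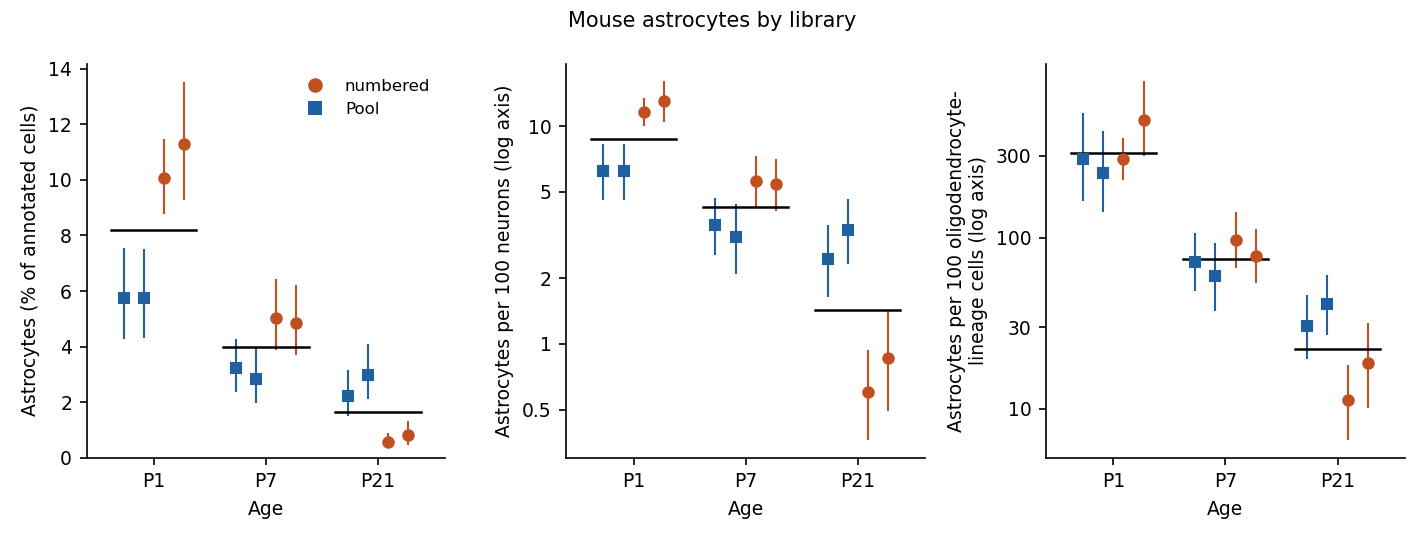
Mouse astrocytes in each library as a percentage of annotated cells, per 100 neurons and per 100 oligodendrocyte-lineage cells, by age. Each point is a library (circles numbered, squares Pool) with its exact 95% interval for counting error, and the line is the mean, geometric in the panels with a log axis. P1 lies highest in each panel, and the numbered libraries run from 11.3% to 0.569% against 5.76% to 2.22% for Pool.

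Mouse astrocytes had few reads, and their share depended strongly on read depth. Among P21 cells with 1000 to under 2000 reads, astrocytes made up 86 of 1528 cells. Between 2000 and 4000 reads they made up 13 of 2587, and between 4000 and 8000 reads 3 of 2762. Above that there were 0 of 1003 P21 cells, which allows a share of up to 0.299%. P7 had a similar course, from 145 of 1334 cells in the lowest range to 1 of 382 in the highest. In the P1 numbered libraries astrocytes were present in every range, and still made up 47 of 712 cells with 8000 or more reads.

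Within the lowest range the ages were not ordered as they were overall. In the Pool libraries the share of astrocytes among cells with 1000 to under 2000 reads was 8.14% and 8.42% at P1, 6.84% and 11.6% at P7, and 8.67% and 11.2% at P21. These values overlapped, although the overall Pool share at P21 was lower than at P1. In the numbered libraries this range gave 12.1% at P1 (replicate 1, since replicate 2 had 3 cells there), 15.0% and 12.7% at P7, and 3.05% and 3.45% at P21. Median reads of neurons moved with age beside this, from 1934 to 1960 in P1 Pool libraries to 2728 to 3598 in P7 Pool and 3896 to 4046 in P21 Pool libraries. The part of depth in the fall of the share was not tested.

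**Figure D2:**
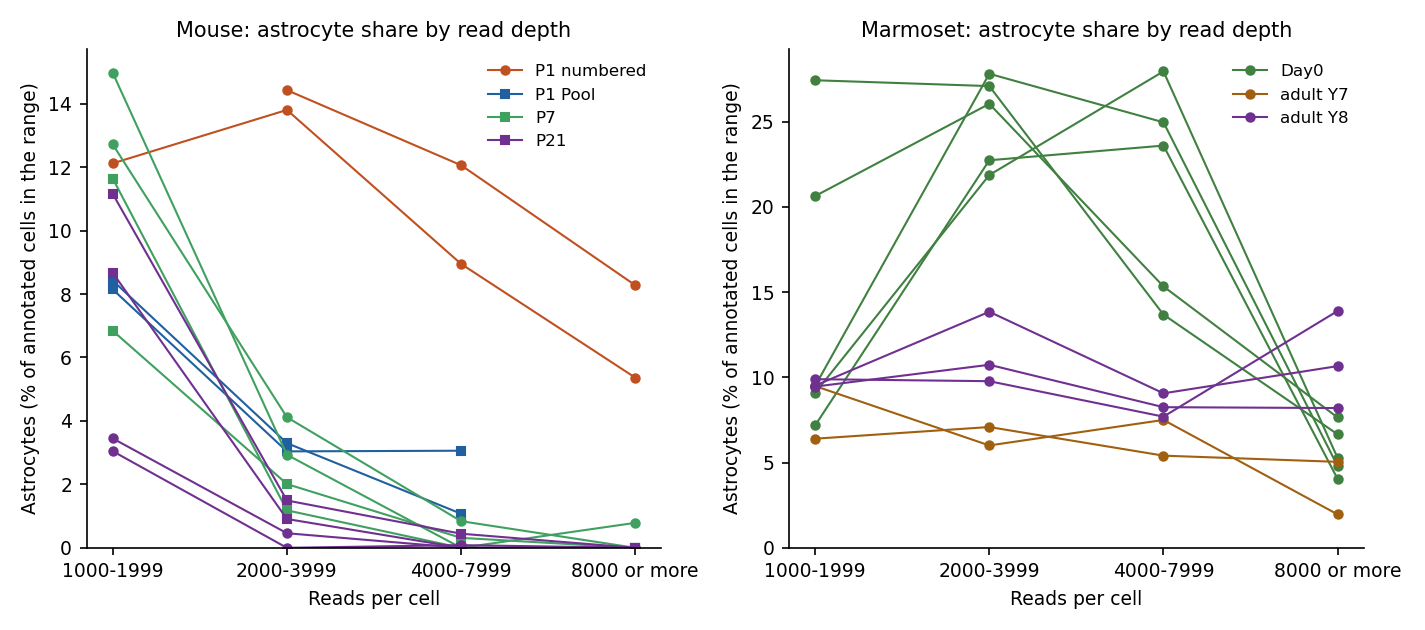
Astrocytes as a percentage of annotated cells within 4 ranges of reads per cell. Each line is a library, with squares for mouse Pool libraries, and ranges with fewer than 20 annotated cells are left out. At P7 and P21 the share is highest between 1000 and 2000 reads and near 0 from 4000 reads on, whereas the Day0 marmoset share is highest between 2000 and 8000 reads in 4 of 5 libraries and below 2000 reads, at 27.4%, in replicate 2.

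In marmoset, astrocytes were a smaller share of adult than of newborn cells. The share was 15.3%, 15.9%, 13.6%, 15.0% and 15.3% in Day0 replicates 1 to 5. Among adults it was 6.21% and 6.62% in Y7 and 11.2%, 9.68% and 9.71% in Y8. No adult library reached a newborn one. The newborn mean was 15.0% ± 0.870 and the adult mean 8.68% ± 2.17 (SD over 5 libraries). The difference was -6.34 percentage points (adjusted p = 0.00794, exact permutation test, the smallest p that 5 against 5 libraries allow).

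Against neurons the direction was the opposite, and the adult libraries split by label. Day0 libraries had 22.3, 22.8, 18.2, 20.4 and 21.5 astrocytes per 100 neurons. Y7 libraries had 26.7 and 30.7, just above the newborn range, whereas Y8 libraries had 169, 218 and 167. The log2 ratio rose by 2.05 ± 0.66 (SE), or 4.15-fold, from Day0 to adult (adjusted p = 0.00794, exact permutation test, n = 5). With Y7 alone the rise was 0.45 and with Y8 alone 3.12 on the log2 scale. The Y8 libraries held only 104, 73 and 85 neurons, against 378 and 261 in Y7 and 1108 to 1352 at Day0. When cells below the species median of 4249 reads were left out, the difference was 0.99 and missed the threshold (adjusted p = 0.127 by the exact test). In all marmoset tests n counts libraries, and libraries of 1 age fell into sets of unlike make-up. Day0 replicates 1 and 2 held 2 and 8 layer IV neurons, and replicates 3 to 5 held 178, 147 and 113. Averaging libraries that agreed in make-up left too few values for any call.

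The split between Y7 and Y8 was present against both classes of neuron. Per 100 interneurons there were 42.3 to 48.7 astrocytes at Day0, 82.8 and 64.0 in Y7, and 289, 442 and 278 in Y8. Per 100 pyramidal neurons there were 31.9 to 42.9 at Day0, 39.5 and 58.8 in Y7, and 409 to 430 in Y8. One Y7 library therefore lay within the newborn range per pyramidal neuron, and neither did so per interneuron.

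Against the oligodendrocyte lineage, marmoset astrocytes fell by a wide margin. At Day0 there were 95.7, 109, 114, 132 and 116 astrocytes per 100 lineage cells. In adults there were 8.80 and 9.22 (Y7) and 13.6, 11.3 and 11.5 (Y8). The log2 ratio changed by -3.39 ± 0.14 (SE), to 0.0957-fold (adjusted p = 0.00794, exact permutation test, n = 5). Against OPC alone, the precursor stage, the ages overlapped: 102 to 181 astrocytes per 100 OPC at Day0 and 92.4 to 114 in adults, a ratio that was described and not tested. OPC made up 947 of the 1122 lineage cells at Day0 and 662 of the 5953 in adults.

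**Figure D3:**
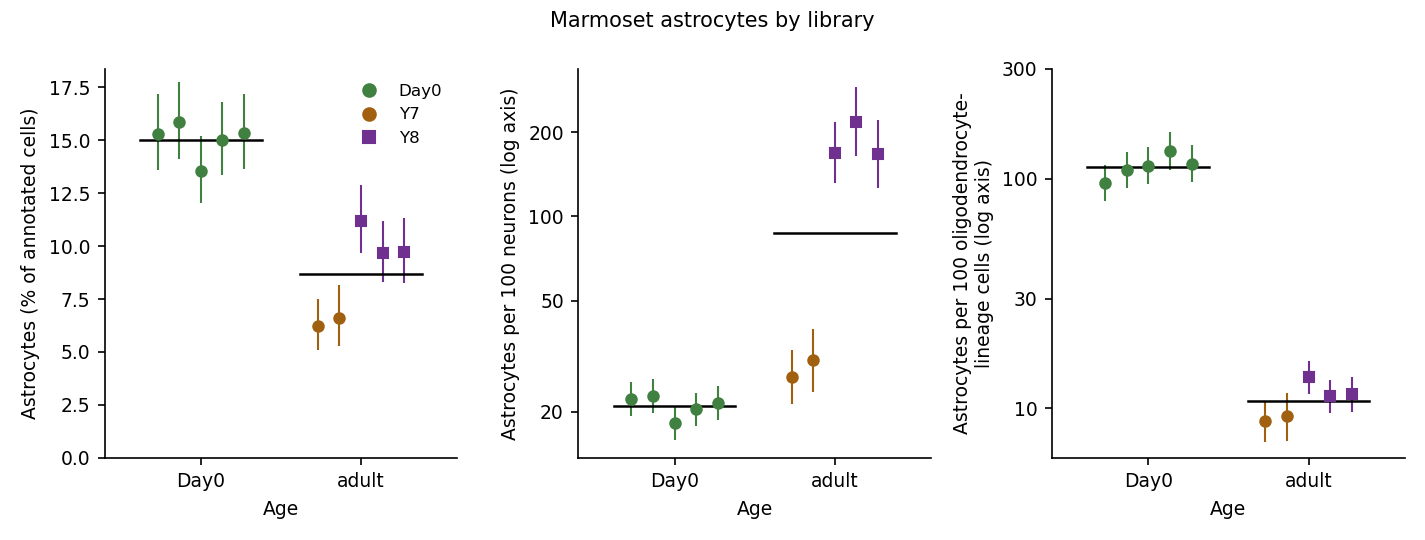
Marmoset astrocytes in each library as a percentage of annotated cells, per 100 neurons and per 100 oligodendrocyte-lineage cells, at Day0 and in adults. Points are libraries with exact 95% intervals for counting error, coloured by label, and lines are means (geometric on log axes). Adults lie lower as a share and against the oligodendrocyte lineage and higher against neurons, where Y7 (26.7 and 30.7) sits near Day0 and Y8 lies at 167 or above.

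Side by side, the newborn marmoset had more astrocytes among its annotated cells than any mouse library, 13.6% to 15.9% against 0.569% to 11.3%. In both species astrocytes became fewer relative to the oligodendrocyte lineage with age, while the stages named in that lineage changed. Against OPC alone the marmoset ages overlapped, and in mouse no P21 cell was named OPC. Relative to neurons they became fewer in mouse from P1 to P21 and more numerous in marmoset from Day0 to adult. The ages and methods do not correspond, so no test was made between species. As a share of all reads of annotated cells, astrocytes held 4.18% to 9.87% at P1, 0.182% to 1.19% at P21, 9.81% to 11.3% at Day0 and 5.53% to 10.9% in adult marmosets.

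Astrocytes held fewer reads than neurons in every library, 12 of 12 in mouse and 10 of 10 in marmoset. In mouse they had the lowest median of all named types in 11 of 12 libraries, and in marmoset in none. These comparisons within libraries are descriptions without a test. The median of reads per astrocyte was 1565 and 1431.5 in P1 Pool libraries and 3663 and 5137 in P1 numbered libraries. In the P1 numbered libraries the lowest peak count lay at the limit of 300, and the part of that limit in their medians was not tested. The median was 1483, 1424, 1480.5 and 1615 at P7 and 1409.5, 1416, 1408 and 1530.5 at P21 (Pool replicates first). Thus 10 of the 12 mouse libraries lay within a narrow range just above the lower limit of 1000 reads. Of P21 astrocytes 84.3% had fewer than 2000 reads, and of P1 Pool astrocytes 75.8%.

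Across ages, no mouse difference in depth passed the test. The log2 difference in median reads was -0.77 ± 0.46 (SE) at P7 and -0.82 ± 0.46 at P21 relative to P1 (adjusted p = 0.377 and 0.137, exact permutation test, n = 4). Without the 2 P1 numbered libraries these were 0.0022 and -0.056. Relative to neurons of the same library, astrocyte reads were 74.0% to 79.8% at P1, 39.6% to 54.4% at P7 and 34.4% to 38.8% at P21. These ranges did not overlap at any age, and the P1 numbered libraries (76.0% and 78.5%) lay among the P1 Pool libraries (79.8% and 74.0%). The differences of -0.77, -1.10 and -0.32 on the log2 scale (P7 and P21 against P1, and P21 against P7) each had the smallest possible p but missed the threshold after adjustment over 12 tests (adjusted p = 0.0857 by the exact test). Without the P1 numbered libraries the differences from P1 were -0.77 and -1.09. Beside this, neuron medians ranged from 1934 to 6540 reads over the 12 libraries.

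In marmoset the read depth of astrocytes did differ with age. Median reads per astrocyte were 3753, 3440, 5277, 5065.5 and 5450.5 in Day0 replicates 1 to 5, so that replicates 1 and 2 lay below the other 3. Adult medians were 2991 and 2957.5 in Y7 and 2546.5, 2536 and 2608 in Y8, all below Day0. The log2 difference was -0.73 ± 0.15 (SE) for reads and -0.69 ± 0.16 for peaks (adjusted p = 0.0106 each, exact permutation test, n = 5). Without Day0 replicates 1 and 2 it was -0.95 for reads. Relative to neurons of the same library the newborn medians lay at 46.3% to 62.9% and the adult ones at 33.5% to 46.1%, a log2 difference of -0.54 ± 0.12 (adjusted p = 0.0106, exact permutation test). Relative to the oligodendrocyte lineage as a whole, astrocyte reads lay at 80.8% to 110% at Day0 and 95.7% to 105% in adults. The adult lineage was a mixture in depth. Its library medians were 4455.5 to 5094 reads for OPC and 1852 to 2287 for myelin-forming oligodendrocytes. Among named types, astrocytes ranked as number 2 of 12 from the lowest mean of library medians at Day0 and as number 4 of 11 in adults, where myelin-forming oligodendrocytes were lowest.

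**Figure D4:**
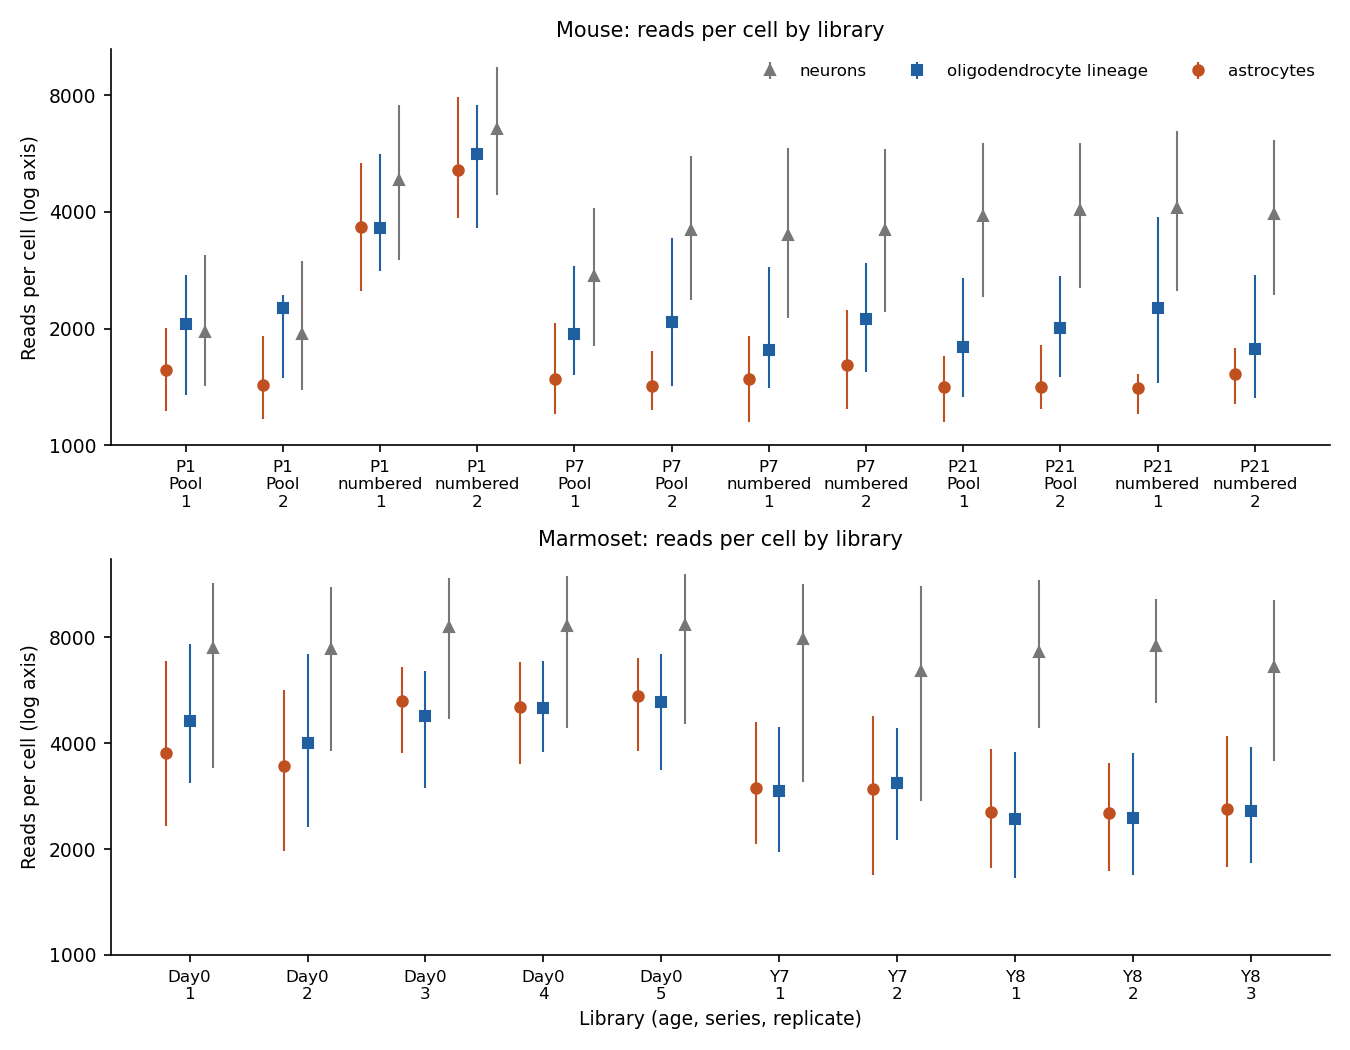
Reads per cell (log axis) of astrocytes, oligodendrocyte-lineage cells and neurons in each of the 22 libraries. Points are medians and bars are interquartile ranges. Astrocyte medians lie below neuron medians throughout, between 1408 and 1615 in 10 mouse libraries, at 3663 and 5137 in the P1 numbered libraries and between 2536 and 5450.5 in marmoset.

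Median peaks with a read did not follow median reads across the P1 libraries. Median peaks per astrocyte were 898 and 836.5 in P1 Pool but 664 and 572 in P1 numbered libraries, even though the latter had more reads. Of the numbered libraries, replicate 2 had more reads than replicate 1 (5137 against 3663) but fewer peaks. At P7 median peaks ranged from 788.5 to 892 and at P21 from 754 to 836. None of the mouse differences passed (adjusted p = 0.377 to 0.571, exact permutation test, n = 4). In marmoset, newborn medians ranged from 1724 to 2778.5 peaks and adult medians from 1321 to 1564.

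At equal reads, as read from a straight line, astrocytes had slightly fewer peaks than neurons of the same library. For this a line of log2 peaks on log2 reads was fitted to the neurons of each library, and the median distance of its astrocytes from the line was taken. The median astrocyte lay below the line in 11 of 12 mouse libraries and 10 of 10 marmoset libraries. By peaks per 100 reads, without a line, astrocytes lay below neurons in only 8 of 12 and 6 of 10. Neurons had higher median reads in every library, and the fit of the line at low reads was not tested. The distance ran from -4.69% to -0.907% at P1, from -2.82% to 1.65% at P7, from -4.46% to -3.66% at P21, from -4.61% to -2.67% at Day0 and from -7.44% to -3.06% in adults. P21 lay below P7 in all libraries, by -0.04 on the log2 scale, and the difference missed the threshold (adjusted p = 0.0857, exact permutation test). The difference between adult and newborn marmosets, -0.03, also missed it (adjusted p = 0.0714, exact permutation test). With windows of equal reads in place of the line, 2 of the 4 age differences changed sign.

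**Figure D5:**
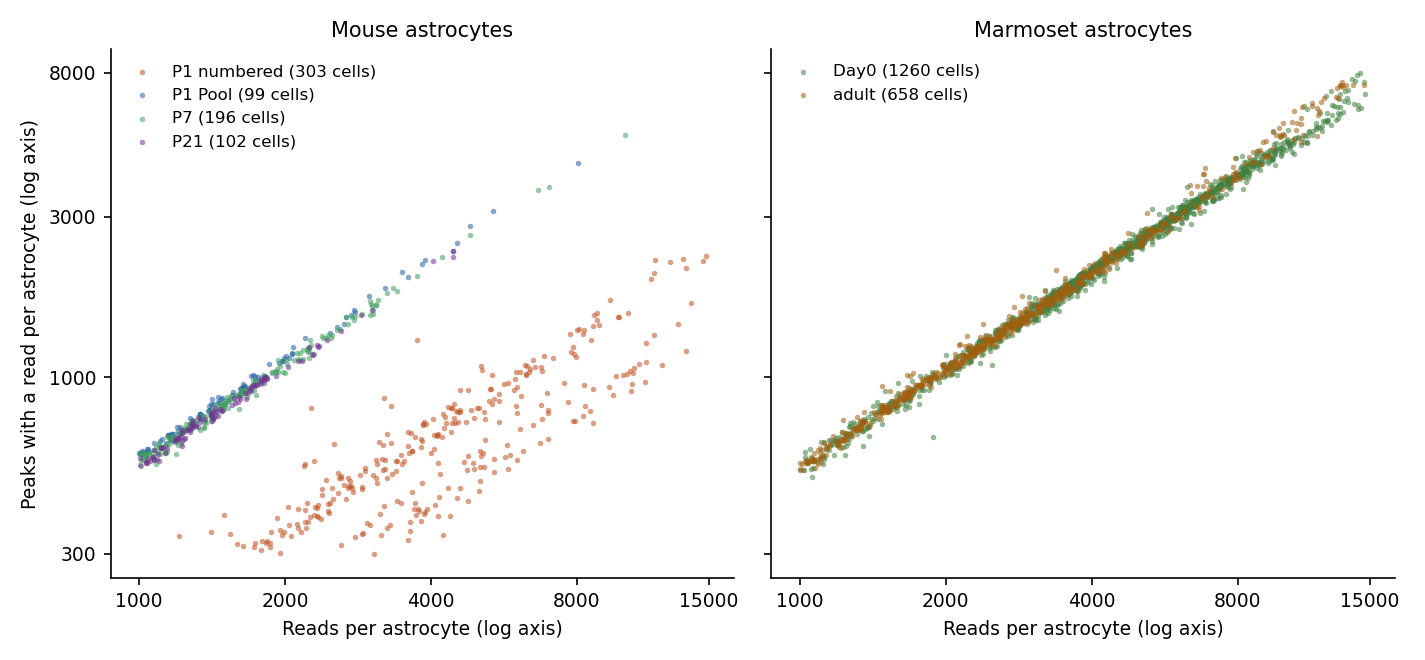
Peaks with a read against reads for every astrocyte (both axes log), mouse left and marmoset right. Each point is a cell, coloured by age and, at P1, by series. The 303 cells of the P1 numbered libraries form bands of their own at 17.2 and 10.7 peaks per 100 reads, below the band of the other mouse astrocytes, which held 53.2 to 57.6.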

How the data were processed

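Members and comparisons were chosen with earlier results of these data known. Per the labels and the study's methods, mouse cells were fixed, tagged on plates and sorted into wells, and marmoset cells were dissociated, sorted as live and loaded in droplets. The authors aligned reads with Bowtie2 to mm10 (mouse) or CalJac3 (marmoset), removed duplicates, sampled libraries to a similar depth, called peaks with MACS2, kept cells within limits on reads and peaks, clustered them and named clusters from marker genes. How doublets were handled is not stated in the paper, labels or tables read here.

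As deposited, each cell had 2 counts, reads and peaks with a read, without normalization. Cells were counted per library and type. Mouse cells without a type (1697, of which 1182 at P7) stayed out of the denominators. Giving 309 of them the type of their cluster left the direction and outcome of all 21 mouse tests unchanged. Ratios were taken as log2 after adding 0.5 to both counts. The library was the replicate. Nothing in the labels says that libraries came from separate animals, so p-values measure the spread between libraries. Two-sided exact permutation tests were adjusted by the Benjamini-Hochberg method within species, for abundance (9 mouse and 3 marmoset tests) and for depth (12 and 4), at a threshold of 0.05. Intervals are exact 95% Clopper-Pearson intervals and, like limits for a count of 0 (3 counts of the total), cover counting error only. Mouse libraries held 893 to 3407 cells and marmoset libraries 1209 to 1814. Scripts used Python 3.11.15, pandas 2.3.3 and SciPy 1.17.1 and were tested on simulated data. Alternatives added after seeing the data left out both P1 numbered libraries, left out Day0 replicates 1 and 2, or left out cells whose barcode occurred in another library.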

Additional observations from a re-analysis of the deposited data

Results flagged for a closer look

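In P21 numbered replicate 2 the median of 1530.5 reads per astrocyte stood apart from the other 3 P21 libraries, with a gap of 0.932 of the whole range against a critical value of 0.829. Chance sets a library apart in this way in about 1 of 20 groups. The rule was applied to every measure in every age group of both species, and set apart no other library. P21 numbered replicate 2 held 16 astrocytes.

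Median peaks per astrocyte moved in opposite directions in the mouse series. The log2 difference from P1 to P7 was 0.48 in the numbered and -0.13 in the Pool libraries, and from P1 to P21 it was 0.37 and -0.15. The difference between the series was not tested. The P1 numbered libraries, with 17.2 and 10.7 peaks per 100 reads of astrocytes, enter every numbered value.

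Cluster 12, which holds the P1 and P7 astrocytes, also held 15 P21 cells without a type. The P21 libraries contributed 3, 6, 4 and 2 of them (Pool replicates 1 and 2, then numbered 1 and 2).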

How the results depend on the processing

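Of 507 alternative values, 495 kept their direction. Values are percentage points for shares and log2 differences otherwise, in the order P7 and P21 against P1, then P21 against P7. Numbered libraries alone gave -9.98 and -4.25 (share, P21 against P1 and P7), -4.06 and -2.91 (per neuron), -4.65 and -2.57 (per oligodendrocyte-lineage cell), -1.49 and -1.56 (reads, against P1), 0.48 and 0.37 (peaks) and 0.0054 (peaks at equal reads, P21 against P1). Pool libraries alone gave -3.15 and -0.44, -1.12 and -0.20, -2.86 and -0.89, -0.043 and -0.083, -0.13 and -0.15, and -0.044 for the same. Without both P1 numbered libraries, P7 and P21 against P1 gave -1.76 and -4.10 (share), 0.0022 and -0.056 (reads), -0.069 and -0.14 (peaks) and -0.042 (peaks at equal reads, P21). Without cells whose barcode occurred in another library no mouse abundance call passed: -4.36 and -6.58 (share), -0.99 and -2.52 (per neuron), -1.90, -3.60 and -1.70 (per oligodendrocyte-lineage cell). With cells of at least the median reads, P21 against P7 per oligodendrocyte-lineage cell was -1.42 (adjusted p = 0.220, exact permutation test, n = 4) and adult against Day0 per neuron 0.99, both no longer passing, and only 0 to 4 astrocytes remained in each P7 and P21 library. One peak minimum (570 in mouse) turned the peak differences from P1 to -0.038 and -0.091, and windows of equal reads turned peaks at equal reads to -0.11 (P7 against P1) and 0.0017 (marmoset), none of them called before or after. For these the cause was not tested. Y7 alone gave -8.61 (share), 0.45 (per neuron), -3.64 (per oligodendrocyte-lineage cell) and -0.055 (peaks at equal reads).

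Leaving out 1 marmoset library at a time kept every call. Peaks at equal reads ranged from -0.0408 to -0.0241 and passed without Y8 replicate 2 (adjusted p = 0.0159, exact permutation test of 4 adult against 5 Day0 libraries). Leaving out 1 mouse library at a time gave values only. Averaging libraries whose make-up agreed within sampling noise left 2 to 4 values per group, also without a possible call. With the replicate number as a replicate block, mouse values (share -4.22 and -6.56) had to stay identical, since each block held 1 library of each age. Marmoset ratios per neuron changed to 2.21. The smallest possible p was 0.125 and 0.111, so none could pass. Correlations over 7 related measures, above 0.1 in 4 of 12 mouse and 2 of 5 marmoset pairs, cannot decide whether numbers pair libraries. The cluster with most astrocytes gave values for P7 against P1 alone.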
